A study of Mus musculus with 6 samples.

Results

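The genes of polyamine synthesis, regulation and breakdown were followed in mGB2, a mouse glioblastoma stem cell line, with and without targeting of Bcat1. They were taken by symbol, and 10 symbols gave 10 of the 49585 rows of each table. Odc1, Amd1, Srm and Sms encode the enzymes of synthesis, Oaz1, Oaz2 and Azin1 the proteins that regulate the first of them, and Sat1, Smox and Paox the enzymes of breakdown and back-conversion. All 10 passed the filter on low counts, as did 14020 genes in all. The groups are 3 Bcat1-KO libraries and 3 control libraries of the same line, both untreated. In both, cells grew attached to plates coated with extracellular matrix, in serum-free stem cell medium containing N2, B27, EGF and FGF, and gave their RNA at confluency. Bcat1 encodes the cytosolic transaminase that starts the breakdown of leucine, isoleucine and valine. How the knockout was made, whether the cells are 1 clone, and whether replicates were separate cultures are unknown from the sources used here. The p-values therefore measure the spread between these samples, which may be technical.

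Polyamines are small, positively charged molecules that bind RNA and DNA and are needed for cell growth. Ornithine decarboxylase makes putrescine from ornithine, and spermidine synthase and spermine synthase then add aminopropyl groups from decarboxylated S-adenosylmethionine, which adenosylmethionine decarboxylase supplies. The pathway is controlled by feedback: polyamines promote a ribosomal frameshift that yields antizyme, antizyme sends ornithine decarboxylase to the proteasome, and antizyme inhibitor binds antizyme in its place. Growing tumours, glioma among them, are known for high polyamine synthesis, and Odc1 is a classical target of Myc.

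The frameshift site of Oaz1 is shown because the protein made from this gene depends on it as well as on the RNA level measured here. In the GENCODE M21 transcript Oaz1-205 (mouse), the first reading frame ends at the stop codon in the capital letters, and the +1 frame that continues from there is open for 151 codons.
Oaz1 frameshift site: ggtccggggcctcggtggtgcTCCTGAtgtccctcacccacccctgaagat

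The 250 bases before the start of Odc1 and of Sms are shown as the synthesis genes that differed between the groups in the same direction, from RefSeq on GRCm38.p6. Capitals mark GGGCGG (the GC box bound by Sp1-type factors), CACGTG (the E-box bound by Myc and Max) and CCAAT, each searched on both strands.
Odc1, chr12:17544623-17544872, plus strand: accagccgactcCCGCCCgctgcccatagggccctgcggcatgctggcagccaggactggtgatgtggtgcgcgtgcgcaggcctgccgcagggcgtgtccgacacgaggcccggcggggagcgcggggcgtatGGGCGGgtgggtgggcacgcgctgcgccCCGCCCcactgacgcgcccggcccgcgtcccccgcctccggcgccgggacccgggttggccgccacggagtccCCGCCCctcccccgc
Sms at its annotated start, chrX:157492288-157492537, minus strand: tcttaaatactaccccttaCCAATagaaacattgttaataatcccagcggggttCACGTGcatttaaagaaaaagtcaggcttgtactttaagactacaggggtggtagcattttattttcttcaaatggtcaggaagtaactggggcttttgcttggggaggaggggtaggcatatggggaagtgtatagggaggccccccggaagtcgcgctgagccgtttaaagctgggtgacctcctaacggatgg
Sms at a start 919 bases inside it, chrX:157491369-157491618, minus strand: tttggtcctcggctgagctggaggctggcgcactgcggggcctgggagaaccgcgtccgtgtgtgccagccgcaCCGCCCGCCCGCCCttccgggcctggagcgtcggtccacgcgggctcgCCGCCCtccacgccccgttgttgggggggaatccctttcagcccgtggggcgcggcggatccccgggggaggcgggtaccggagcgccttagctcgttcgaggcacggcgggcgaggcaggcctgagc
The Odc1 window held 4 GC boxes, which begin 238, 116, 88 and 15 bases before the start, and no CACGTG. Bases after the start were not searched. Sms has windows at 2 starts, and they differ. The outer one held a CCAAT, no GC box and the only CACGTG among the 10 windows found for 8 of the genes, 196 bases before its start, whereas the inner one held 4 GC boxes, 3 of them overlapping, and neither CACGTG nor CCAAT. Their GC content was 47.2% and 75.2%. GC boxes were present in 8 of the 10 windows, from 7 of these 8 genes. Over all 32851 RefSeq windows of this length, 32.7% held GGGCGG, 6.02% CACGTG and 33.8% CCAAT. All of these are matches to letters and no measure of binding.

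Libraries held 29543157 to 37800648 strand-matched counts. The targeted gene was still transcribed: Bcat1 stood at 155, 176 and 173 CPM (counts relative to library size, scaled by the TMM method) in the knockout against 214, 223 and 232 in the control. The log2 fold change of Bcat1 in edgeR's quasi-likelihood test was -0.41, with SE 0.07 and an adjusted p of 0.000355 (Benjamini-Hochberg, over all genes tested), and counts over a whole gene do not show whether an edited exon is present. The labelled cell type was checked by its markers. Of the progenitor markers Sox2, Nes, Olig2, Msi1, Vim and Sox9 were expressed in both groups. Gfap was low (1.93 ± 0.276 CPM in the knockout against 0.807 ± 0.139 in the control), and Prom1 was under 1 CPM and at 0 in the control. The 8 progenitor markers summed to 2060 to 2260 CPM in the knockout against 1476 to 1540 CPM in the control. Of the 8, 6 were called higher in the knockout, and Nes and Msi1 did not pass the test. The 7 microglia markers summed to at most 4.26 CPM in any library, with P2ry12 and Itgam at 0 in all, the 5 endothelial markers to under 1 CPM, with Cldn5 at 0, and the 5 oligodendrocyte markers to at most 3.40 CPM, with Mog and Mag at 0. The 6 fibroblast markers summed to 24.7 to 28.6 CPM in the knockout against 42.1 to 46.2 in the control. Among them Pdgfra was level (21.6 ± 1.24 against 21.8 ± 1.18 CPM). Col1a1 (4.21 ± 0.973 against 17.7 ± 0.783 CPM) and Pdgfrb (0.224 ± 0.0872 against 4.54 ± 0.0349 CPM) were lower. Col1a2, Lum and Dcn were under 1 CPM, with Dcn higher in the knockout. The 5 neuron markers summed to 407 to 453 CPM against 215 to 232. Map2 carried the neuron sum (391 ± 28.5 against 168 ± 7.46 CPM), while Rbfox3, which encodes the neuronal nuclear antigen NeuN, went the other way, from 33.1 ± 0.667 CPM in the control to 0.0719 ± 0.0415 CPM in the knockout. The part of these shifts in the results below was not tested. In bulk RNA, fewer cells of a type and less RNA per cell cannot be told apart.

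The gene for the first enzyme rose most among the 10. Odc1, ornithine decarboxylase (ENSMUSG00000011179.7, chromosome 12 from 17544873 to 17551502 in mm10, plus strand), had 735, 894 and 907 CPM in the knockout against 305, 312 and 330 in the control. Every knockout library lay far above every control library, and knockout replicate 1 was the lowest of its group. The means were 845 ± 95.8 and 316 ± 12.6 CPM (SD, n = 3 each), a 2.68-fold difference. On the log2 scale the change was 1.42 (SE 0.09, 95% interval 1.22 to 1.62, adjusted p = 7.64e-08, edgeR). It was exceeded by 989 of the 14020 genes tested (7.05%). Odc1 was also the only one of the 10 genes to pass when edgeR tested against a change of 1.5-fold, as 21.7% of all genes did.

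The other 3 synthesis genes did not move as a group: Sms rose, Amd1 fell by less, and Srm did not pass the test. Sms, spermine synthase (ENSMUSG00000071708.11, chromosome X from 157443855 to 157492287, minus strand), had 103, 119 and 110 CPM in the knockout against 74.1, 75.4 and 73.2 in the control. The groups did not overlap, and the control libraries lay close together. The log2 fold change of Sms was 0.58 (SE 0.07, 95% interval 0.43 to 0.73, adjusted p = 1.76e-05, edgeR).

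Amd1, adenosylmethionine decarboxylase (ENSMUSG00000075232.5, chromosome 10 from 40287458 to 40302186, minus strand), had 81.6, 104 and 102 CPM in the knockout against 109, 122 and 122 in the control. The groups did not overlap, but knockout replicates 2 and 3 lay close under control replicate 1. Its log2 fold change was -0.30 (SE 0.09, 95% interval -0.50 to -0.10, adjusted p = 0.0144, edgeR). Without control replicate 2 the adjusted p was 0.0549 (edgeR), and on log2(TPM + 1) values it was 0.0718 (limma-trend).

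Srm, spermidine synthase (ENSMUSG00000006442.10, chromosome 4 from 148591503 to 148594993, plus strand), had 191, 238 and 262 CPM in the knockout against 243, 252 and 266 in the control. Knockout replicate 1 lay apart below, replicate 2 just under the control range and replicate 3 inside it. The log2 fold change was -0.14 (SE 0.10, 95% interval -0.36 to 0.08, adjusted p = 0.248, edgeR), and the interval covers a fall as well as no change. Without knockout replicate 3 it was -0.26 (adjusted p = 0.0341, edgeR).

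**Figure D1:**
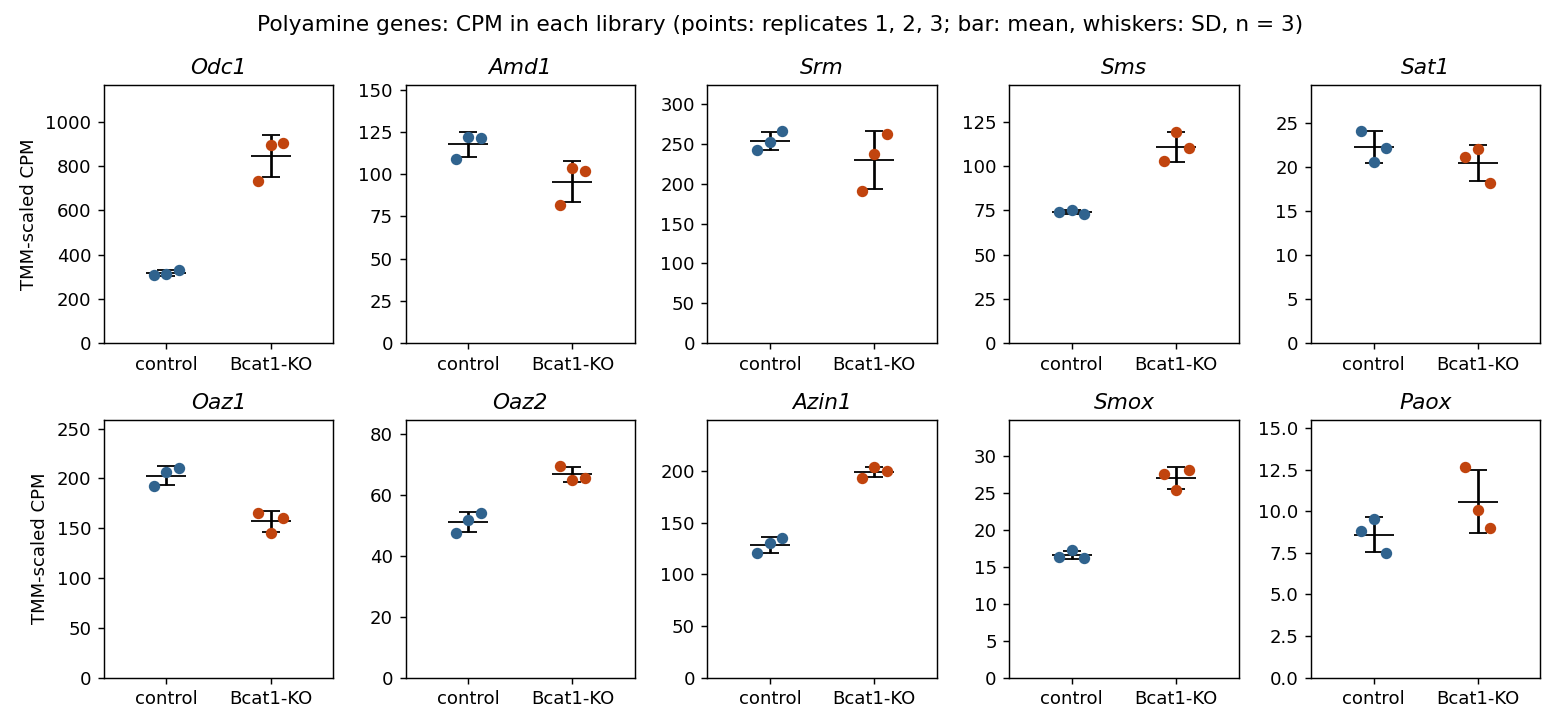
TMM-scaled CPM of the 10 polyamine genes (vertical axis, from 0, a scale for each gene) in the 3 control and 3 Bcat1-KO libraries, with a point for each library, a bar for the mean and whiskers for the SD. Odc1 separates most widely, with 735 to 907 CPM in the knockout above 305 to 330 CPM in the control, while the Srm, Sat1 and Paox groups overlap.

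The regulators of ornithine decarboxylase moved in different directions: Oaz1 fell, while Oaz2 and the inhibitor gene Azin1 rose. Oaz1, antizyme 1 (ENSMUSG00000035242.15, chromosome 10 from 80826656 to 80829290, plus strand), whose frameshift site is printed above, had 165, 145 and 160 CPM in the knockout against 192, 207 and 210 in the control. No knockout library reached the lowest control library. For Oaz1 the log2 fold change was -0.37 (SE 0.07, 95% interval -0.53 to -0.22, adjusted p = 0.000739, edgeR).

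Oaz2, antizyme 2 (ENSMUSG00000040652.16, chromosome 9 from 65668001 to 65690300, plus strand), had 69.4, 65.0 and 65.5 CPM in the knockout against 47.4, 51.7 and 54.1 in the control, again without overlap. Its log2 fold change was 0.38 (SE 0.07, 95% interval 0.23 to 0.53, adjusted p = 0.000495, edgeR). Azin1, antizyme inhibitor 1, a catalytically inactive relative of ornithine decarboxylase (ENSMUSG00000037458.14, chromosome 15 from 38487430 to 38519266, minus strand), had 193, 203 and 200 CPM in the knockout against 120, 130 and 135 in the control. Each knockout library exceeded each control library by more than the whole spread within either group. For Azin1 the log2 fold change was 0.63 (SE 0.07, 95% interval 0.48 to 0.78, adjusted p = 6.64e-06, edgeR).

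Of the breakdown genes Smox rose, and Sat1 and Paox did not pass the test. Smox, spermine oxidase, which turns spermine back into spermidine and releases hydrogen peroxide (ENSMUSG00000027333.18, chromosome 2 from 131491496 to 131525922, plus strand), had 27.6, 25.4 and 28.1 CPM in the knockout against 16.3, 17.3 and 16.3 in the control. The groups were far apart relative to their spread. On the log2 scale Smox changed by 0.70 (SE 0.08, 95% interval 0.52 to 0.88, adjusted p = 1.53e-05, edgeR).

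Sat1, spermidine/spermine N1-acetyltransferase, which marks polyamines for export or oxidation (ENSMUSG00000025283.15, chromosome X from 155213132 to 155216449, minus strand), had 21.2, 22.1 and 18.2 CPM in the knockout against 24.2, 20.5 and 22.1 in the control. The groups overlapped, and the log2 fold change of -0.12 had an interval from -0.34 to 0.09 (SE 0.10, adjusted p = 0.302, edgeR). Paox, the peroxisomal oxidase of acetylated polyamines (ENSMUSG00000025464.15, chromosome 7 from 140115799 to 140137224, plus strand), had 12.7, 10.1 and 9.0 CPM in the knockout against 8.81, 9.52 and 7.47 in the control. Its groups overlapped as well, since knockout replicate 3 lay below control replicate 2. For Paox the log2 fold change was 0.30 (SE 0.15, 95% interval -0.02 to 0.61, adjusted p = 0.0971, edgeR). It was 0.39 without knockout replicate 3, which lay just past the threshold, and 0.13 was its lowest value with any library left out.

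In all, 7 of the 10 genes differed between the groups in edgeR's test, against 62.3% of all genes tested. By direction, 5 of the 10 rose, against 32.0% of all genes, and 2 fell, against 30.3%. The values of the groups did not overlap for 7 of the 10, against 67.7% of all genes. The share that changed was thus near that of the whole table. The median log2 fold change of the 10 was 0.34, beside 0.01 over all genes tested. Knockout replicate 1 was the lowest knockout library for Odc1, Amd1, Srm, Sms and Azin1 and the highest for Oaz1, Oaz2 and Paox. Without it no call among the 10 changed in edgeR: the log2 fold change was 1.49 for Odc1, 0.61 for Sms, 0.63 for Azin1, 0.66 for Smox, 0.33 for Oaz2, -0.43 for Oaz1 and -0.21 for Amd1. The genes that did not pass stood at -0.04 (Srm), -0.17 (Sat1) and 0.13 (Paox) in that fit.

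Levels per length were compared in the authors' TPM, which is corrected for the length of all exons of a gene. That length can exceed the length of a transcript. It is 2558 bases for Oaz1 and 2547 for Odc1, whose longest coding transcripts in GENCODE M21 have 1071 and 2208 bases. The order of genes and their shares depend on the length used, and which transcripts were made was not tested. In the control the order was Srm (501 ± 22.7), Odc1 (391 ± 16.1), Oaz1 (250.3 ± 10.8), Amd1 (105 ± 6.18), Azin1 (65.1 ± 3.64), Oaz2 (53.9 ± 3.40), Sms (39.0 ± 0.386), Sat1 (25.4 ± 2.27), Smox (13.5 ± 0.360) and Paox (5.53 ± 0.642), all in TPM as mean and SD. No neighbours in that order overlapped between libraries. In the knockout Odc1 stood first at 1089 ± 141 TPM, ahead of Srm at 473 ± 81.0, and Azin1 (105 ± 4.45) came ahead of Amd1 (88.6 ± 12.8). The knockout levels of Amd1 and Oaz2 (72.9 ± 1.31 TPM) overlapped, as did those of Sat1 (24.2 ± 2.43 TPM) and Smox (22.8 ± 1.10 TPM).

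Odc1 took a larger part of the pathway's RNA in the knockout. It made up 27.3%, 26.6% and 27.1% of the summed TPM of the 10 genes in the control libraries and 49.4%, 51.9% and 50.9% in the knockout libraries. The sum itself was 1399, 1438 and 1513 TPM in the control against 1875, 2245 and 2307 TPM in the knockout. On the scale of all genes, 2.33% of tested genes had a higher TPM than Odc1 in the control against 0.642% in the knockout.

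Ratios between the genes were taken within each library, so that library scaling does not enter them. The summed TPM of Oaz1 and Oaz2 over that of Odc1 was 0.304, 0.224 and 0.237 in the knockout against 0.758, 0.800 and 0.774 in the control. Antizyme transcripts were thus fewer per Odc1 transcript in every knockout library than in any control library. The TPM ratio of Azin1 to the summed antizymes was 0.354, 0.415 and 0.379 in the knockout against 0.212, 0.213 and 0.216 in the control, where the 3 libraries nearly coincided. The ratio of Oaz1 to Oaz2 was 2.75 ± 0.124 in the knockout against 4.65 ± 0.0964 in the control (n = 3 each). The ratio of Srm to Sms was 7.80 ± 1.01 against 12.9 ± 0.708. That of Odc1 to Amd1 was 12.3 ± 0.276 against 3.74 ± 0.178. The groups did not overlap in any of these 5 ratios, and each gave p = 0.1 in a two-sided exact permutation test, the smallest value that 3 against 3 libraries allow. They rest on the same counts as the fold changes above, and their size depends on the exonic lengths used. They concern RNA, and neither the frameshift nor any protein was measured.

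**Figure D2:**
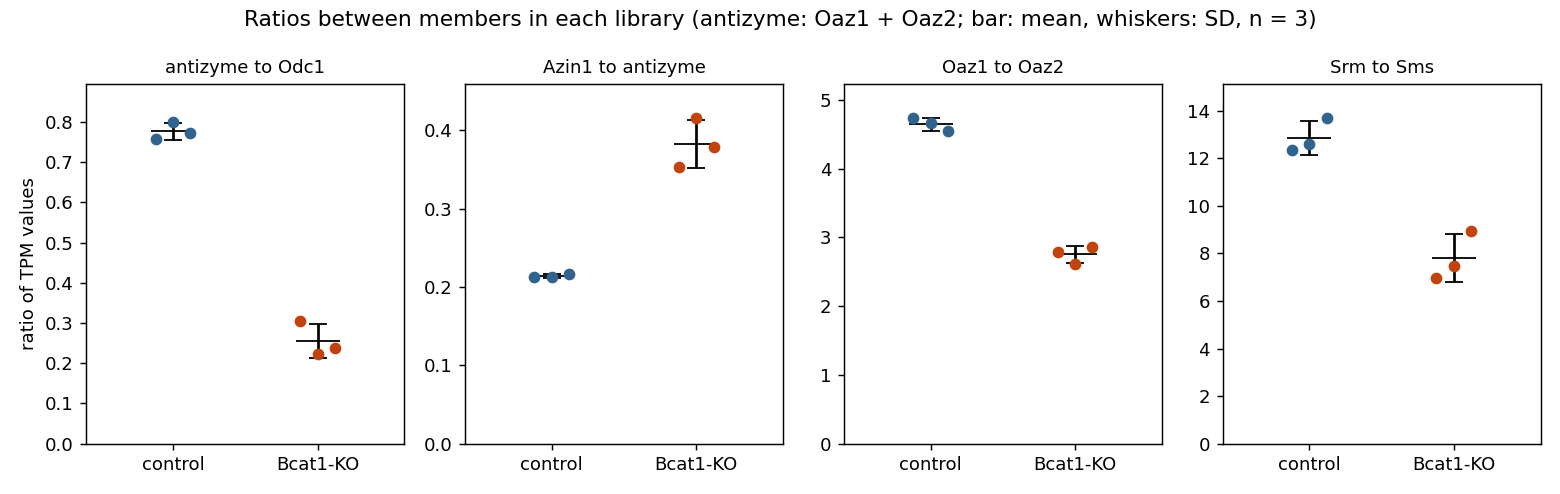
Ratios of TPM values within each library (vertical axis, from 0) for antizyme (Oaz1 plus Oaz2) to Odc1, Azin1 to antizyme, Oaz1 to Oaz2 and Srm to Sms, with a point for each of 3 control and 3 Bcat1-KO libraries, the mean as a bar and the SD as whiskers. The groups do not overlap in any of the 4 ratios, and antizyme to Odc1 is 0.255 ± 0.0431 in the knockout against 0.777 ± 0.0210 in the control.

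Each polyamine gene was also set beside the median log2 fold change of the 51 tested genes around it on its chromosome. Odc1 lay in a run of genes that rose. Of the 10 other tested genes from Greb1 to Hpcal1 on chromosome 12, 9 rose, with log2 fold changes up to 2.64 (Kcnf1), and Atp6v1c2 did not pass the test (-0.55, adjusted p = 0.184, edgeR). Among the 9, Gm22748 is a small row inside Odc1 on the same strand, so its reads cannot be told apart from those of Odc1. The median of the 10 was 1.37, beside 1.42 for Odc1. The nearest tested genes outside Odc1 were Nol10, an RNA-binding nucleolar protein, at 1.58 before it and Hpcal1, a neuronal calcium sensor, at 0.92 after it. Before Greb1, Ntsr2 stood at -2.52 and Lpin1 at -0.43. Past Hpcal1 the changes were smaller: of the next 8 tested genes 4 rose and 0 fell, with a median of 0.23 and a highest value of 0.51 (Asap2). These genes are distant: Hpcal1 starts 146 kb after the start of Odc1, and Asap2, the next tested gene, 3567 kb after it.

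**Figure D3:**
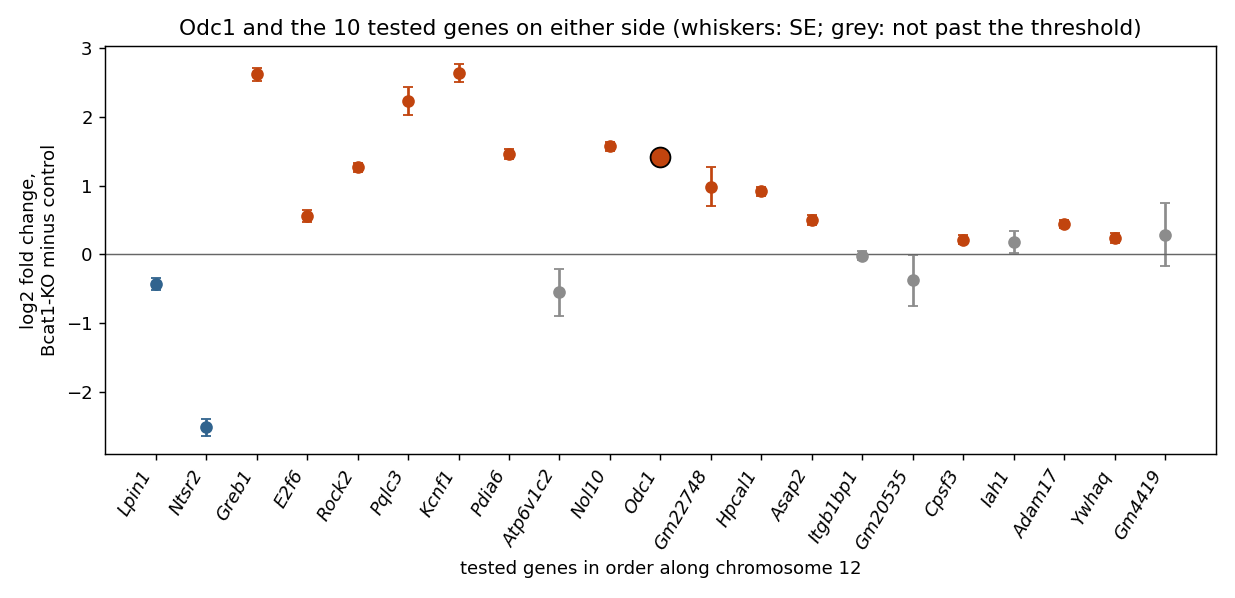
Log2 fold change (Bcat1-KO minus control, vertical axis) of Odc1 and the 10 tested genes on either side, in their order along chromosome 12, with whiskers for the SE, orange for higher, blue for lower and grey for not past the threshold. Odc1 at 1.42 lies within a run of higher genes from Greb1 to Hpcal1, beyond which Ntsr2 and Lpin1 are lower.

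With the median of 51 neighbours removed from every gene, Odc1 had a log2 fold change of 1.13 (adjusted p = 6.12e-07, edgeR), Smox 0.445 (adjusted p = 0.000611), Sms 0.37 (adjusted p = 0.000674) and Azin1 0.30 (adjusted p = 0.00221). These 4 of the 10 genes passed in that fit, against 55.6% of all genes. For Odc1 the 51 genes reach past the run from Greb1 to Hpcal1. Their median was 0.29, beside 1.37 within the run. The fit therefore does not show whether Odc1 rose beyond that run. The Oaz1 neighbourhood had a median of -0.49 and the Oaz2 neighbourhood one of 0.45, each past the gene's own change. Both antizyme genes therefore changed sign and missed the threshold relative to their neighbours, Oaz1 at 0.12 (adjusted p = 0.181, edgeR) and Oaz2 at -0.06 (adjusted p = 0.466). Amd1, with a neighbourhood median of -0.16, was left at -0.14 (adjusted p = 0.217, edgeR).

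**Figure D4:**
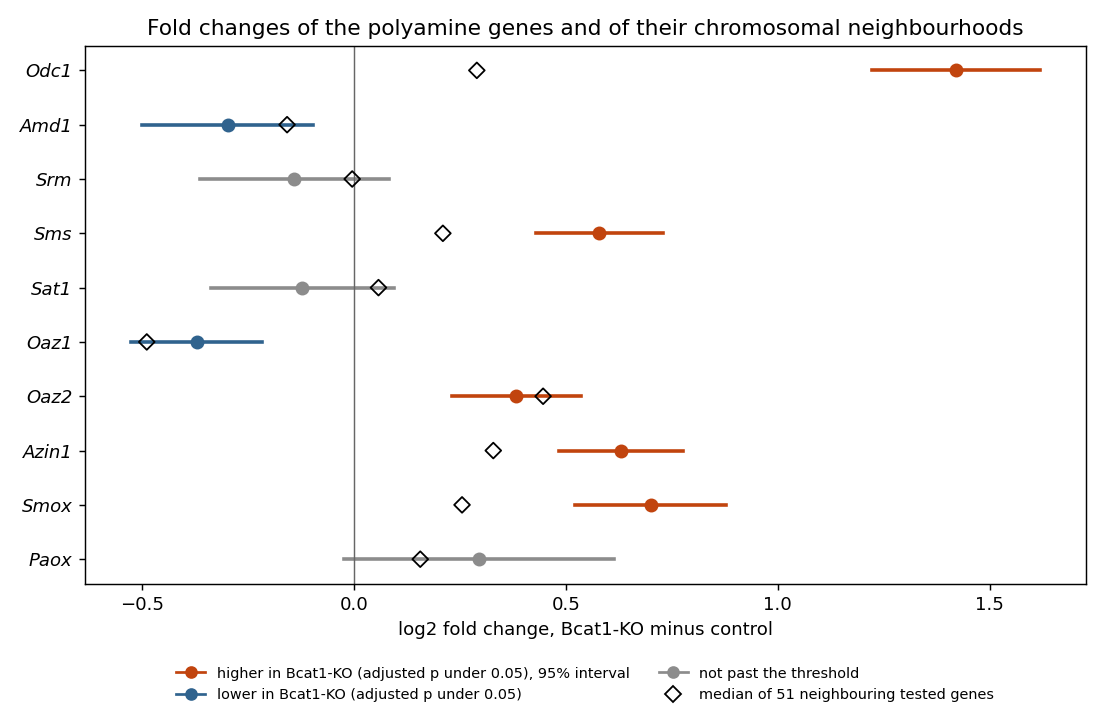
Log2 fold change (Bcat1-KO minus control, horizontal axis) of the 10 polyamine genes with 95% intervals, orange for higher, blue for lower and grey for not past the threshold, and open diamonds for the median of the 51 tested genes around each. The diamond lies far below the Odc1 point (0.29 against 1.42) and below the intervals of Sms, Azin1 and Smox. It lies inside the intervals of Oaz1, Oaz2, Amd1, Srm, Sat1 and Paox. The 51 genes around Odc1 reach past the run from Greb1 to Hpcal1.

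Odc1 has processed pseudogenes with which it can share reads, and the largest was Gm7993. It lies on chromosome 5 from 95974240 to 95975623, and 1388 bases of it align to the Odc1 transcript at 95.7% identity. Shown is the first stretch of 90 coding bases of Odc1 that aligns to Gm7993 without a gap. It starts at base 74 of the coding sequence in GENCODE M21, and the single base that differs is in capitals. Over all 1366 aligned coding bases the identity was 97.7%, so this stretch is more alike than the whole.
Odc1: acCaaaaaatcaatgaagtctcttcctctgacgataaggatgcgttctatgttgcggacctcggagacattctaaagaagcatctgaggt
Gm7993: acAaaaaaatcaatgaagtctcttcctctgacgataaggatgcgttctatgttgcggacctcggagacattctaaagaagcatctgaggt
The Gm7993 row, chosen after its values were seen, held 94.2, 117 and 124 CPM in the knockout against 40.3, 41.5 and 45.4 in the control, which is 1.40 on the log2 scale (SE 0.10, edgeR adjusted p = 1.91e-07). It thus followed Odc1, and whether its reads come from its own transcript was not tested. The 9 rows like Odc1 in the tables together held 15.7% as many counts as Odc1 in the knockout against 15.2% in the control. With these counts added, the log2 fold change of Odc1 was 1.43 (adjusted p = 7.89e-08, edgeR). For Amd1 the rows alike, Amd2 among them with 3202 aligned bases at 99.6% identity, held 6.02% and 5.91% as many counts as the gene. Adding the counts of such rows changed no call among the 10 genes. How reads that match several places were assigned, the sources used here do not say.

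The genes around the pathway were described through 6 lists of 65 genes, of which 50 were tested, 17 rose, 18 fell and 15 did not pass, with a median log2 fold change of -0.05. The shares that rose (34%) and fell (36%) were near those of all genes (32.0% and 30.3%), beside which the counts of each list below also stand. The named genes are those with the largest change in each list among called genes whose mean log2 CPM was 0 or more, except Gatm, which lies under that level, and Eif5a, Arg1 and Arg2, all chosen like Mat2a and Mycn after their values were seen. All tests are edgeR's, adjusted over all genes.

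Ornithine, the substrate of Odc1, comes from arginine or glutamate. Of 9 tested genes in the supply list 3 rose and 3 fell, with a median log2 fold change of 0.26. Azin2, a regulator by function, is counted among the 3 that rose. Ass1, argininosuccinate synthase, fell from 14.7 ± 1.26 CPM in the control to 2.87 ± 0.459 CPM in the knockout (log2 fold change -2.36, adjusted p = 4.23e-08). Asl, argininosuccinate lyase, which completes arginine synthesis, fell from 49.3 ± 4.0 to 25.8 ± 1.21 CPM (-0.94, adjusted p = 9.77e-07). Oat, the mitochondrial ornithine aminotransferase, rose from 76.7 ± 3.52 to 106 ± 16.2 CPM (0.47, adjusted p = 0.00119). Azin2, a second antizyme inhibitor, rose from 4.64 ± 0.655 to 7.63 ± 1.54 CPM (0.72, adjusted p = 0.00299). Gatm, which makes ornithine while starting creatine synthesis, fell from 1.05 ± 0.334 to 0.207 ± 0.0867 CPM (-2.31, adjusted p = 0.000221), a level of at most 41 counts in a library. Of the enzymes that cut ornithine from arginine, Arg1 had 0 counts in all libraries and Arg2 reached at most 0.0603 CPM, so neither arginase was measurable beyond a few counts.

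The methionine cycle supplies S-adenosylmethionine and the salvage pathway recovers methionine from the by-product of the spermidine and spermine synthases. Of 13 tested genes 5 rose and 5 fell, with a median of -0.10. Mtap, methylthioadenosine phosphorylase, the first step of salvage, rose from 67.2 ± 3.30 to 95.5 ± 5.58 CPM (log2 fold change 0.51, adjusted p = 5.19e-05), whereas Mri1, which acts next, fell from 56.8 ± 1.78 to 38.8 ± 3.68 CPM (-0.55, adjusted p = 7.40e-05). The Mri1 neighbourhood had a median of -0.53, and relative to it Mri1 stood at -0.02 (adjusted p = 0.896). Ahcyl2, a relative of the adenosylhomocysteine hydrolase, rose from 113 ± 6.29 to 172 ± 23.1 CPM (0.61), and Mat2b, the regulatory subunit of methionine adenosyltransferase, from 46.8 ± 1.02 to 63.2 ± 2.69 CPM (0.43, adjusted p = 0.000109). Its catalytic partner Mat2a, added after its values were seen, went the other way, from 580 ± 50.7 to 436 ± 99.5 CPM (-0.41, adjusted p = 0.0215), stood at -0.27 without knockout replicate 1, and lost the call without control replicate 1 (adjusted p = 0.0965).

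Spermidine is also the donor for hypusine, the modified lysine that the translation factor eIF5A needs. Both enzymes of that step fell and the factor did not pass: of 4 tested genes 0 rose and 2 fell, with a median of -0.23. Dhps, deoxyhypusine synthase, fell from 71.6 ± 3.90 to 42.1 ± 1.68 CPM (log2 fold change -0.77, adjusted p = 1.44e-06). Dohh, deoxyhypusine hydroxylase, fell from 69.5 ± 1.22 to 53.7 ± 4.13 CPM (-0.37, adjusted p = 0.000633). Eif5a stood at 1346 ± 79.3 CPM in the control against 1483 ± 61.0 CPM in the knockout (0.14, adjusted p = 0.147). Dhps and Dohh lay in neighbourhoods with medians of -0.53 and -0.44. Relative to these Dhps still passed at -0.24 (adjusted p = 0.0112), and Dohh stood at 0.07 (adjusted p = 0.415).

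Of 8 tested transport genes 5 rose and 2 fell, with a median of 0.27, and 3 rose without knockout replicate 3. Atp13a3, a lysosomal and endosomal polyamine pump, rose from 156 ± 8.69 to 246 ± 13.4 CPM (log2 fold change 0.66, adjusted p = 7.69e-06), and Slc18b1, a vesicular polyamine transporter, from 2.76 ± 0.317 to 5.49 ± 0.280 CPM (0.99, adjusted p = 0.000109). Gpc1, a heparan sulphate proteoglycan linked to polyamine uptake, fell from 252 ± 2.55 to 167 ± 13.0 CPM (-0.60, adjusted p = 1.93e-05), and Slc12a8 from 2.75 ± 0.131 to 0.986 ± 0.227 CPM (-1.48, adjusted p = 6.52e-05).

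Of 5 other tested regulators and family members 1 rose and 3 fell, with a median of -0.23. Nqo1, a quinone reductase that can shield ornithine decarboxylase from the proteasome, had 38.4, 25.3 and 23.4 CPM in the knockout against a mean of 47.2 ± 1.0 CPM in the control (log2 fold change -0.70, adjusted p = 0.00145). Relative to its neighbourhood it stood at -0.32 (adjusted p = 0.0847). With the local median removed, 0 genes of this list were called higher and 0 lower. Aldh9a1, an aldehyde dehydrogenase of putrescine breakdown products, rose from 90.1 ± 5.6 to 110 ± 2.71 CPM (0.29, adjusted p = 0.00244). Psmd4, a ubiquitin receptor of the proteasome, fell from 253 ± 7.83 to 216 ± 9.60 CPM (-0.23, adjusted p = 0.00929). The median of its neighbourhood was also -0.23. Sat2, a relative of Sat1, had the least firm change, from 10.4 ± 1.41 to 8.19 ± 0.791 CPM (-0.35, adjusted p = 0.0357), which was lost without knockout replicate 3 (adjusted p = 0.0934), control replicate 1 (0.129) or control replicate 2 (0.113).

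The Myc genes, which encode activators of Odc1, moved in different directions: Myc and Mycn fell and Mycl rose. Of 11 tested genes of the Myc network 3 rose and 3 fell, with a median of -0.10, and 5 fell without knockout replicate 1. Myc had 9.89, 15.0 and 15.9 CPM in the knockout against a mean of 31.1 ± 2.53 CPM in the control (log2 fold change -1.19, adjusted p = 2.75e-05). Mycn, named after its values were seen, fell from 950 ± 14.7 to 726 ± 60.2 CPM (-0.39, adjusted p = 0.00122). Mycl rose from 1.97 ± 0.407 to 8.41 ± 2.57 CPM (2.08, adjusted p = 1.00e-05). Among the other genes of the network, Mxd4 rose from 30.5 ± 1.73 to 62.8 ± 14.7 CPM (1.04, adjusted p = 3.53e-05) and Mga fell from 176 ± 6.56 to 112 ± 10.5 CPM (-0.65, adjusted p = 1.79e-05). Whether any of these shifts bears on Odc1 was not tested.

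**Figure D5:**
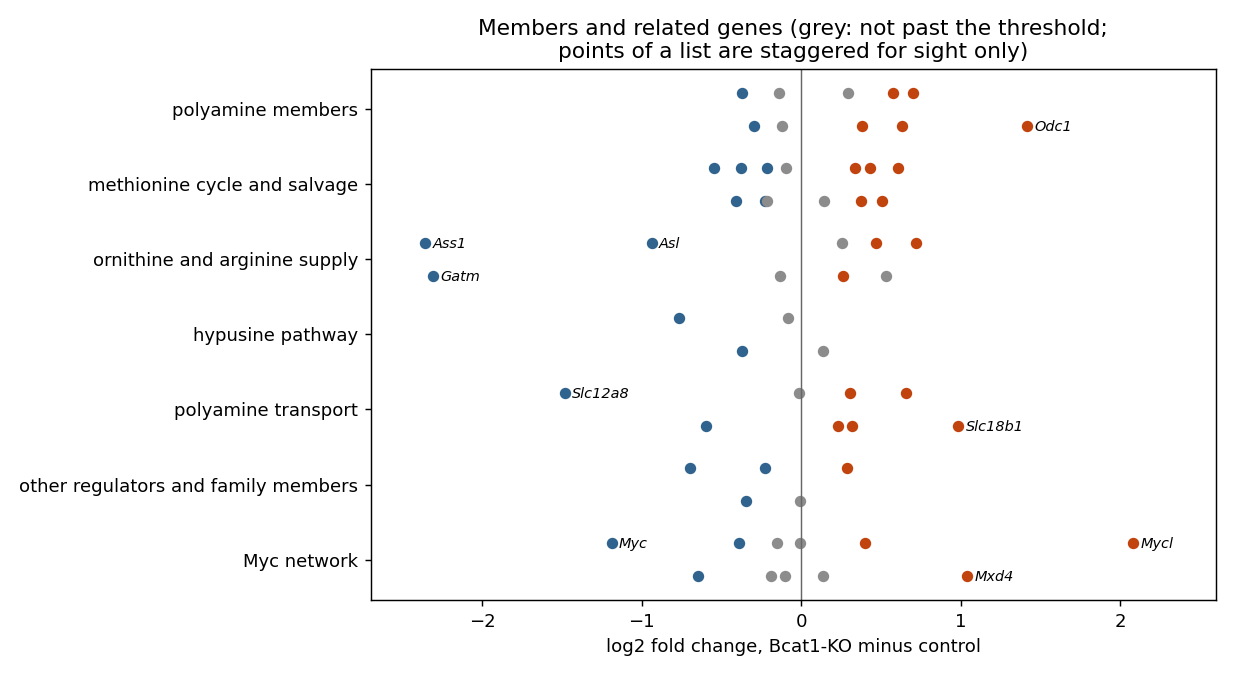
Log2 fold change (Bcat1-KO minus control, horizontal axis) of each tested gene of the 10 polyamine genes and of 6 lists around the pathway (rows), with orange for higher, blue for lower and grey for not past the threshold, and vertical stagger for sight only. Odc1 at 1.42 stands apart from the other polyamine genes, and every list but the hypusine pathway has genes called in both directions.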

How the data were processed

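RNA was measured in 3 Bcat1-KO and 3 control libraries made with a stranded poly(A) kit, per the labels' protocols. The submitters' processing notes name STAR 2.5.3a, featureCounts and the build mm10, and the sources used here do not name the annotation release. The deposited counts are whole reads per gene, unscaled, and those on the reverse strand, 96.4% to 96.5% of stranded counts, were tested. The authors' TPM values are scaled by length and by library total, per the file headers, and served for levels between genes, ratios and 1 alternative fit. The ratios between genes equalled those of CPM per kb of exonic length.

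Genes were filtered with filterByExpr (14020 kept, 0.0511% of counts removed), scaled by TMM and compared by the quasi-likelihood test of edgeR 4.0.16 (Benjamini-Hochberg over all of them, threshold 0.05, no covariate). Local medians were taken over 51 tested genes in chromosome order. Rows that share sequence with a member were found with blastn 2.17.0+ against GENCODE M21 transcripts, at 90% identity or more over 500 bases or more. The members and lists were chosen with earlier results of these data known. Named genes are the 10 members, Bcat1, and up to 4 genes per list that changed most among those past the threshold whose mean log2 CPM was 0 or more, besides those said to be chosen after their values were seen. Alternatives were other scalings, no filter, DESeq2 1.42.0, limma 3.58.1 (voom, and trend on log2(TPM + 1)), unstranded counts, a 1.5-fold threshold, a replicate block, a fit without mitochondrial genes and the 10 most abundant ones, removing the local median, leaving out each replicate and, added after seeing the data, adding the counts of rows that share sequence. Replicates of a group differed beyond counting noise (chi-square per gene 3.91 to 32.5). Analyses used R 4.3.3 and Python 3.11.15.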

Additional observations from a re-analysis of the deposited data

How the results depend on the processing

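Odc1 kept its direction and its call under all 18 alternatives, and Sms, Azin1 and Smox under all but the test against a 1.5-fold threshold. That test called 3045 genes in all, 1564 higher and 1481 lower, and 1 polyamine gene, so that 1 was higher and 0 lower. With the local median removed 4 polyamine genes were called, 0 of them lower, and Oaz1 (0.12), Oaz2 (-0.063) and Dohh (0.071) changed sign. That fit sets each gene against its neighbours by construction. For Odc1 these neighbours reach past the run from Greb1 to Hpcal1. On log2(TPM + 1) values 1 polyamine gene was lower, and the cause was not tested. Leaving out a library gave 7734 to 9330 genes, 6 to 9 polyamine genes called, 5 to 6 of them higher and 1 to 3 lower, the 9 without knockout replicate 3 and the 1 lower without control replicate 2, with fewer samples in each fit. Replicate numbers are shared by the groups. The same-numbered deviations from the group means correlated at -0.05, -0.07 and 0.16, beside -0.12 to 0.18 between different numbers. No shared effect of the number was thus seen, and whether the samples were paired is unknown. With a replicate block 8662 genes were called and 7 polyamine genes, 5 higher and 2 lower, and no polyamine call changed. Depth limits Paox most among the 10, at 7.47 to 12.7 CPM.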

Other observations

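On the opposite strand the 10 polyamine genes held few reads, from 0.0231% (Amd1) to 0.702% (Paox) of a gene's stranded counts, and at most 14 counts in 1 library. Paox is overlapped on that strand by Echs1, a mitochondrial enoyl-CoA hydratase, over 678 bases. Of the other genes listed around the pathway, Otc, Aoc1 and Satl1 had 0 counts in all 6 libraries. Amd2, the near copy of Amd1, stood at 0.487 ± 0.0169 CPM in the knockout against 0.488 ± 0.0671 in the control (n = 3 each).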
